A study of Mus musculus with 33 samples.

Results

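The 41 genes described here encode proteins of the extracellular matrix, the enzymes that build and cut it, and products that mark hepatic stellate cells and the myofibroblasts that arise from them. They were chosen by gene symbol, each measured by the probe assigned to it alone that had the highest mean over all arrays of the authors' normalized values. Of the 41 genes, 38 had such a probe among the 19057 genes with a probe on the array; none was listed for Col6a3, Fbn1 and Loxl2. The study measured RNA of 33 mouse liver samples with Illumina bead arrays of the MouseWG-6 v2.0 design, 1 array for each sample. Hepatocellular carcinomas came from Sav1 -/- mice (11 samples) and from Mst1/2 -/- mice (4 samples), which lack the kinases Mst1 and Mst2 together. Surrounding liver of Sav1 -/- mice (7) and Mst1/2 -/- mice (3) was sampled beside them. Normal livers came from mice with floxed alleles, Sav1 flox (3) and Mst1/2 flox (3), and from Wt mice (2). Strain, age, sex, diet, treatment, and how and in which cells the genes were deleted are not given in the sources used here. The labels do not say which samples came from the same mouse, so a p-value here refers to the scatter between arrays of a group, some of which may be technical.

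Sav1 is the scaffold of the Mst1 and Mst2 kinases, the upstream core of the Hippo pathway, which restrains the coactivators YAP and TAZ and their TEAD partners on DNA. Stellate cells lie between hepatocytes and the sinusoidal endothelium. At rest they store vitamin A as retinyl esters made by Lrat; after injury they can become contractile myofibroblasts that express Acta2 and secrete fibrillar collagen. Type IV collagen, by contrast, is a sheet-forming collagen of basement membranes, and in liver endothelial cells also make it. In RNA of whole tissue, fewer cells of a type cannot be told apart from less RNA per cell, and this holds for every level that follows.

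Levels are given as log2 of the background-corrected, quantile-normalized signal, and a difference of 1 on this scale is a doubling of signal. A probe was called above background on an array when it exceeded the 99th percentile of an estimated background, and a gene was tested when its probe passed on at least 3 arrays. That left 36 of the 41 members among 14339 genes tested; 24 members were above background on all 33 arrays, and Postn and Thbs1, on 2 arrays each, were not tested. Median signals ran from 78.5 to 112 units and 34.8% to 55.0% of probes exceeded background. The probe of Sav1 read 9.31 ± 0.33 (SD, n = 3) in Sav1 flox liver and 9.05 ± 0.48 (n = 11) in Sav1 tumours, and that of Stk4, which encodes Mst1, read 9.69 ± 0.12 in Mst1/2 flox liver and 9.81 ± 0.17 in Mst1/2 tumours. Whether these probes lie in the deleted parts is not given, so they do not check the labels, and no probe was listed for Stk3, which encodes Mst2. Over probes above background on no array, the arrays were clustered by correlation and cut into 3 sets. That number was a setting, and no label names the sets. Set A holds the Sav1 flox livers and replicates 1 to 3 of Sav1 surrounding liver and of Sav1 tumour. Set C holds replicates 4 to 7 of Sav1 surrounding liver and 4 and 5 of Sav1 tumour, and set B all other arrays. The mean correlation with arrays of the same set was 0.146 in A, 0.0151 in B and 0.0147 in C. With arrays of other sets it was -0.0961, -0.0794 and -0.0389, so sets B and C hold together only weakly. Xist, the transcript of the inactive X chromosome, read 10.91 ± 0.33 in the Mst1/2 flox livers and at most 6.48 on every other array, while the Y-linked Eif2s3y read 6.10 ± 0.06 there and 11.30 ± 0.05 and 10.99 ± 0.26 in Mst1/2 surrounding liver and tumour. In comparisons with Mst1/2 flox liver, sex and genotype therefore cannot be told apart.

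Compared with Sav1 flox liver, Sav1 tumours had more RNA of some matrix genes and less RNA of the stellate cell genes Lrat, Reln and Hgf. With limma over all genes (adjusted p under 0.05), 13 of the 36 members were higher (36.1%) and 4 were lower (11.1%). Over all 14339 genes 32.7% were called (16.9% higher and 15.8% lower), so the share of members called lower was below that of all genes. Timp1, Lgals1, Col3a1, Col4a1 and Sparc were among those that rose, each by more than 2 on the log2 scale or, for Timp1, at least 7.20-fold; Reln, Lrat, Hgf and Col14a1 fell. Arrays of tumour and flox liver did not overlap for 11 members (14.8% of all genes). The median member differed by 0.85 (0.73 with 5 dim members at their bounds), and the median gene by 0.05. The share of calls that were higher depended on scaling: it was 51.8% for all genes and 76.5% for members under quantile normalization, and 87.0% and 88.9% under median scaling, which moved the median gene to 0.27. Leaving out Sav1 tumour replicate 6, which had the lowest level of the 11 tumours for 27 of the 36 members, raised the count from 17 to 22 members (32.9% of all genes). Leaving out Sav1 flox replicate 1 lowered it to 11 (26.4%), ending the calls of Col4a2, Col14a1, Col15a1, Spon2, Timp3 and Vim.

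Surrounding liver of Sav1 -/- mice gave 1 call. Lgals1 was higher, 1 of 36 members, where 10.3% of all genes were called and 4.92% were higher; 12 members had an unadjusted p under 0.05 and 12 did not overlap between the groups (16.1% of all genes). The median member differed by 0.68 and the median gene by 0.02. Between Sav1 tumour and its surrounding liver, 12 members were called, where 12.4% of all genes were. Col4a1, Col4a2, Spon2, Timp1, Lgals1 and Acta2 were higher in tumour (6.79% of all genes), and Col14a1, Dcn, Des, Lrat, Reln and Hgf were lower (5.64%). The median member differed by 0.10. Under median scaling the share of all-gene calls that were higher went from 47.7% to 92.1% for surrounding against flox liver and from 54.6% to 68.6% for tumour against surrounding liver.

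In Mst1/2 tumours 16 members were higher than in Mst1/2 flox liver and 0 were lower, where 19.8% of all genes were called, 11.0% higher and 8.83% lower. Lrat, the resting stellate cell gene, differed by -1.12 ± 0.42 there (adjusted p = 0.0564). The 7 tested matrix enzymes and inhibitors were all among the 16. Arrays of the groups did not overlap for 23 members (42.8% of all genes), and those of Mst1/2 surrounding and flox liver for 32 (43.6%). The median member differed by 1.49, the median gene by -0.00; under median scaling the median gene was at 0.16 and 82.0% of all-gene calls were higher, against 55.5%. Mst1/2 surrounding liver had 4 members called, Spon2, Loxl1, Col4a1 and Lgals1, all higher, where 3.84% of all genes were called and 2.52% were higher and 1.31% lower (65.8% of the calls, 88.9% under median scaling); leaving out any 1 of these 6 arrays left 1 or 2, Spon2 among them each time. Between Mst1/2 tumour and surrounding liver limma called 0 members and 0.0697% of all genes, and 7 members had an unadjusted p under 0.05. The flox livers of the lines gave 0 member calls against each other (3.47% of all genes), with 1 unadjusted p under 0.05. With Sav1 flox livers as the control in place of the Mst1/2 flox livers, 22 members were called in Mst1/2 tumour (20 higher, 2 lower; 24.7% of all genes) and 12 in Mst1/2 surrounding liver (10.7%). With this control, array set and mouse line differ along with tissue and cannot be told apart from it.

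**Figure D1:**
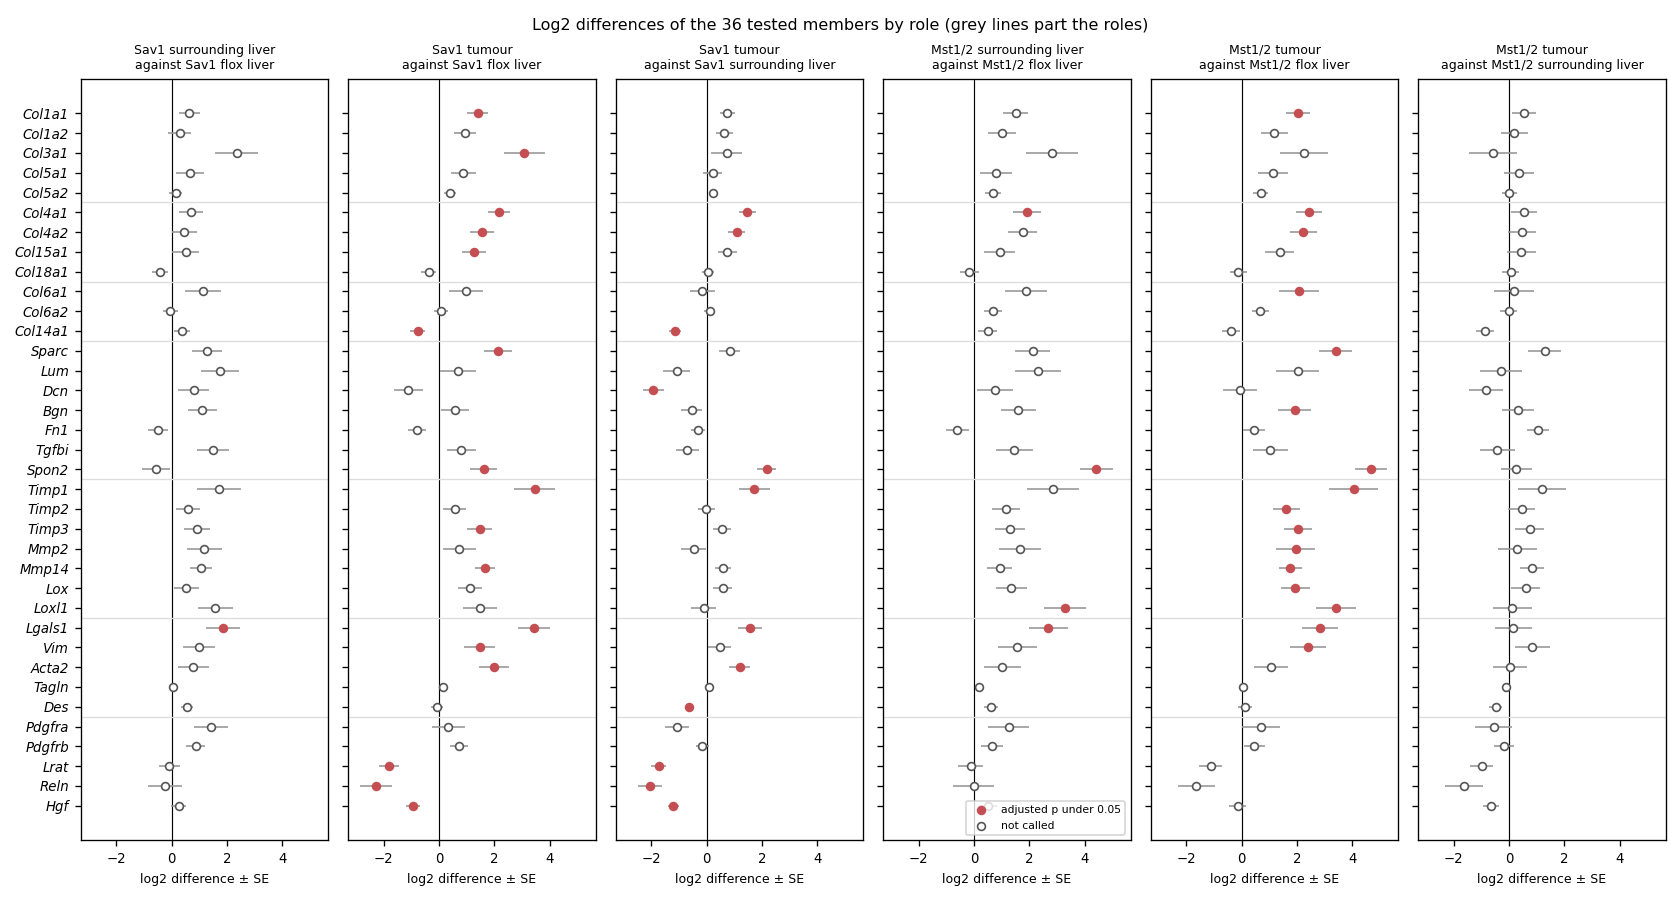
Log2 differences (points) with their standard errors (bars) of the 36 tested members in 6 comparisons, ordered by role; filled points passed adjusted p under 0.05. Matrix enzymes sit right of 0 in both tumour columns against flox liver, and Lrat and Reln sit left of 0 in all 4 columns that involve tumour. Where a flox group was not above background (Col1a1 and Lox in both lines, Timp1 and Col1a2 in Sav1, Col5a2 and Tagln in both) the plotted value is the fitted difference and not a bound.

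Fibrillar collagens form the tensile fibres of scar tissue; Col1a1 and Col1a2 encode the chains of type I collagen, Col3a1 that of type III. The Col3a1 probe read 7.08, 7.04 and 7.39 in the 3 Sav1 flox livers, from 7.51 to 11.75 with a median of 9.70 in Sav1 surrounding liver and from 7.92 to 12.32 with a median of 10.85 in Sav1 tumours. Both knockout groups lay wholly above the flox livers, and tumour overlapped surrounding liver. The difference from flox liver was 3.08 ± 0.74 (SE; adjusted p = 0.00232) for tumour and 2.35 ± 0.79 (adjusted p = 0.0522) for surrounding liver. In the Mst1/2 line it read 7.76, 7.86 and 7.35 in flox liver, 10.30, 11.09 and 10.04 in surrounding liver and 10.16, 10.01, 9.64 and 9.79 in tumours, groups that did not overlap with flox liver. The difference of 2.24 ± 0.87 for tumour did not pass (adjusted p = 0.0678). A second probe of Col3a1 lay near background and differed by 0.14 in Sav1 tumour.

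Col1a1 was not well above background on any of the 8 normal livers, where it read from 6.08 to 6.46. It was above background on 5 of 7 Sav1 surrounding livers (from 6.17 to 8.47 with a median of 6.64) and on all 11 Sav1 tumours (from 6.43 to 8.85 with a median of 7.79). Sav1 tumours had at least 1.98-fold the signal of Sav1 flox liver (adjusted p = 0.0047), with 1 tumour inside the flox range. Mst1/2 tumours read 8.57, 8.70, 7.72 and 7.94 and Mst1/2 surrounding livers 7.72, 7.85 and 7.52, all above the flox livers, and tumours had at least 3.50-fold the flox signal (adjusted p = 0.00128). Its partner chain Col1a2 read from 6.07 to 8.49 with a median of 7.44 in Sav1 tumours and 6.23, 6.28 and 6.41 in Sav1 flox liver, at least 1.42-fold with no call (adjusted p = 0.077). In Mst1/2 tumours Col1a2 read 8.83, 7.24, 7.60 and 6.65, in Mst1/2 surrounding liver 7.80, 6.85 and 7.51, and in Mst1/2 flox liver 6.44, 6.47 and 6.26 (adjusted p = 0.0775). The dimmer Col1a2 probe pointed the same way as Col1a1 without passing. Col5a1 and Col5a2, minor chains of the same fibres, were not called in any of the comparisons run.

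The type IV collagen genes rose in tumours of both lines. Col4a1 and Col4a2 encode the 2 chains of the common basement membrane trimer and lie head to head on opposite strands of chromosome 8. Their RefSeq promoter windows, from 250 bases before to 50 after each listed start, are shown because the 2 starts are only 21 bases apart; capitals mark the 78 bases that the windows share (mouse build GRCm38.p6; Col4a1 on the minus strand, chr8:11312777-11313076; Col4a2 on the plus strand, chr8:11312555-11312854; both 5′ to 3′).
Col4a1: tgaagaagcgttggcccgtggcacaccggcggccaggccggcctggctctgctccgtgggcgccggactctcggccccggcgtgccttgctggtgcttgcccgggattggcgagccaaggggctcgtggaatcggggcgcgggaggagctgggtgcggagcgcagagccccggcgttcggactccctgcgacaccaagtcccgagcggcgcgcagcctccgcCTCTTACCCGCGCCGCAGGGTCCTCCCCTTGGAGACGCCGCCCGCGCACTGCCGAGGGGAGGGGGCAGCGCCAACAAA
Col4a2: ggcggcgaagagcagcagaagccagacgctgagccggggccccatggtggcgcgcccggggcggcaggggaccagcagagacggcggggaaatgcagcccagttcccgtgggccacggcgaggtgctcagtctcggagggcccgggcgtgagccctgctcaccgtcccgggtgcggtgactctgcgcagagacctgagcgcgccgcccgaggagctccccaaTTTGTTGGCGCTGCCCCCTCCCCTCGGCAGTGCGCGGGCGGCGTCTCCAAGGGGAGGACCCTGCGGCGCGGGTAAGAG
The Col4a1 probe read 8.96, 9.74 and 9.63 in Sav1 flox liver, from 9.22 to 11.77 with a median of 9.65 in Sav1 surrounding liver and from 10.69 to 12.78 with a median of 11.63 in Sav1 tumours. No tumour overlapped the flox livers, while surrounding livers ranged from the flox level to that of the tumours. The differences were 2.17 ± 0.40 from flox liver (adjusted p = 0.000198) and 1.47 ± 0.30 from surrounding liver (adjusted p = 0.00132). Col4a2 read 8.04, 9.54 and 8.88, from 8.73 to 10.37 with a median of 9.03 and from 8.66 to 11.72 with a median of 10.36 in the same groups. Its tumours overlapped both other groups, and it rose by 1.55 ± 0.42 over flox (adjusted p = 0.00576) and 1.09 ± 0.31 over surrounding liver (adjusted p = 0.0191), the latter lost without Sav1 surrounding replicate 3 or 7. The calls of Col4a1 and Col4a2 against surrounding liver were also lost within set A, within set C and with same-numbered samples as blocks, though no label pairs these samples.

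In the Mst1/2 line Col4a1 read 9.28, 9.29 and 9.15 in flox liver, 10.98, 11.61 and 10.83 in surrounding liver and 11.98, 11.78, 11.43 and 11.49 in tumours. Both knockout groups lay clear of the flox livers, and they overlapped each other. Tumours were higher than flox liver by 2.43 ± 0.47 (adjusted p = 0.000599) and surrounding livers by 1.90 ± 0.51 (adjusted p = 0.0286). Col4a2 read 8.63, 9.005 and 8.65, 10.33, 11.07 and 10.17 and 11.16, 11.06, 10.63 and 11.12. Its rise of 2.23 ± 0.49 in tumour passed (adjusted p = 0.00189); the 1.76 ± 0.53 of surrounding liver did not (adjusted p = 0.055). Across the 11 Sav1 tumours the pair varied together, with Pearson's r of 0.848 (permutation p = 0.00089, adjusted 0.00273 over 7 pairs of members tested) and Spearman's rho of 0.882 (adjusted p = 0.00609). The r was 0.728 without the 2 tumours farthest from the Col4a1 median and 0.944 in the 6 tumours of set B. Col15a1, a basement membrane zone collagen, rose by 1.26 ± 0.45 in Sav1 tumour (adjusted p = 0.0309), a call that ended on leaving out any of the 3 flox livers. Col18a1, the precursor of endostatin and a liver product, read from 12.92 to 14.76 in Sav1 tumours and was called in no comparison.

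Type VI collagen forms beaded filaments. Col6a1 ranged from 6.65 to 11.30 in Sav1 tumours and was not called there (adjusted p = 0.221); in Mst1/2 tumours it was higher than in flox liver by 2.07 ± 0.72 (adjusted p = 0.0411), a call lost when any of the 3 flox livers or tumour replicate 1, 3 or 4 was left out. Col6a1 and Col6a2 correlated across Sav1 tumours with r of 0.927 (permutation p = 5.0e-05, adjusted 0.00035), rho of 0.791 (adjusted p = 0.0192), and r of 0.899 without the 2 farthest tumours. The fibril-associated Col14a1 went the other way. It read 8.36, 8.26 and 8.16 in Sav1 flox liver, from 8.14 to 8.94 with a median of 8.67 in surrounding liver and from 6.17 to 8.04 with a median of 7.63 in tumours, and every tumour lay below every flox and surrounding liver. It fell by 0.77 from flox liver (SE 0.28, adjusted p = 0.0337) and by 1.15 from surrounding liver (SE 0.21, adjusted p = 0.000388). The Mst1/2 livers read 8.51, 8.15 and 8.42 in flox, 8.92, 9.07 and 8.55 in surrounding and 7.40, 7.40, 8.19 and 8.95 in tumour. Replicates 1 and 2 of the tumours lay below all flox and surrounding livers and replicate 4 among the surrounding livers, with no call.

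**Figure D2:**
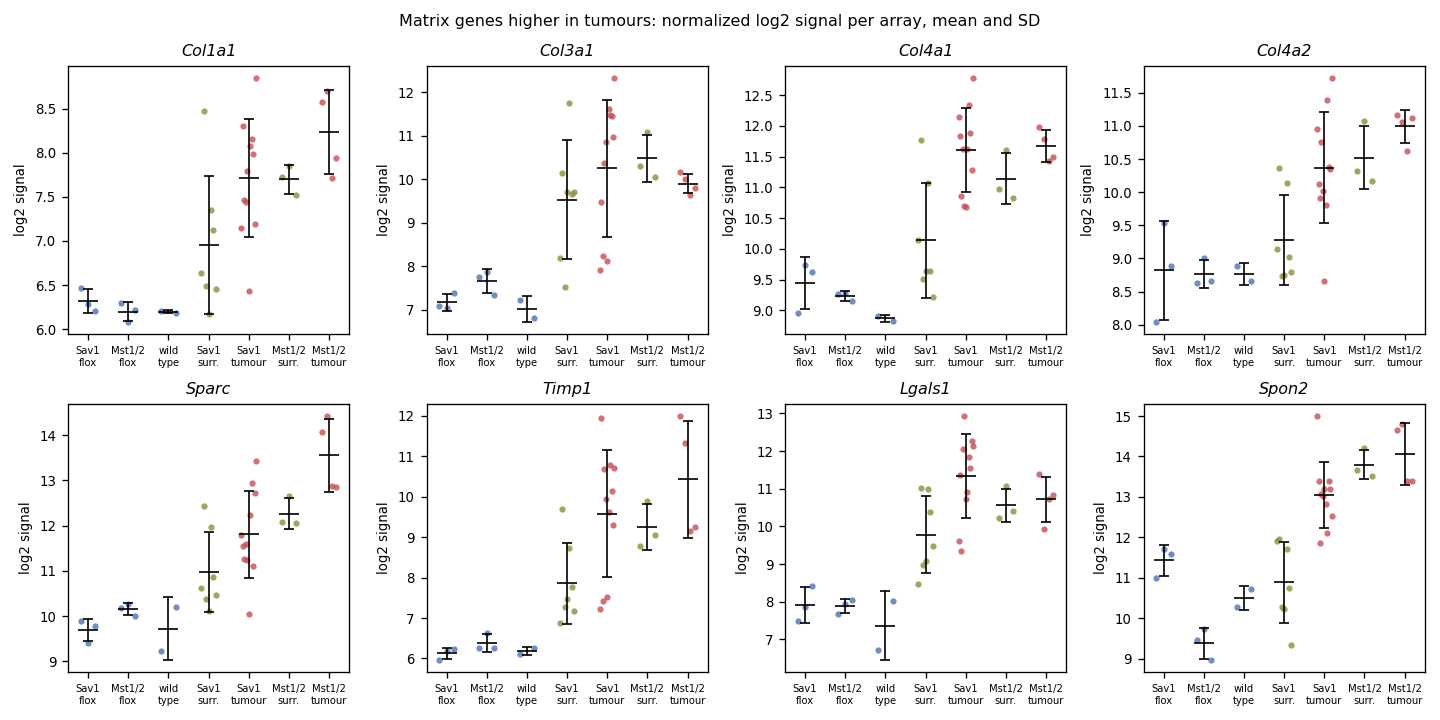
Normalized log2 signal of 8 matrix genes on each of the 33 arrays (points) by group, with the mean (dash) and SD (bars). In both knockout lines the tumours' means lie above those of the normal livers for all 8 genes, with overlap between single Sav1 tumours and flox livers for Col1a1 and Col4a2.

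Sparc, a collagen-binding glycoprotein, and Spon2, a secreted F-spondin family protein, were the glycoproteins that rose in both lines. Sparc read 9.89, 9.41 and 9.78 in Sav1 flox liver, from 10.11 to 12.43 with a median of 10.62 in surrounding liver and from 10.05 to 13.44 with a median of 11.59 in tumours. Knockout livers did not overlap the flox livers, and Sav1 tumour differed from flox by 2.12 ± 0.50 (adjusted p = 0.00202). In the Mst1/2 line it read 10.17, 10.27 and 10.01 in flox, 12.09, 12.66 and 12.06 in surrounding liver and 14.07, 14.42, 12.87 and 12.85 in tumours. These 3 groups did not overlap at all, and tumours rose over flox liver by 3.40 ± 0.59 (adjusted p = 0.000191). Sav1 tumours were lower than Mst1/2 tumours on average (difference -1.74, SE 0.45, adjusted p = 0.0279).

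Spon2 differed between the normal livers as well. It read 11.002, 11.72 and 11.59 in Sav1 flox liver, 9.45, 9.73 and 8.96 in Mst1/2 flox liver and 10.28 and 10.71 in Wt liver, groups that did not overlap. Among 36 members the F test over the 3 normal groups called 0 (5.26% of all genes), and 1, Spon2, had an unadjusted p under 0.05 (adjusted p = 0.0943). Sav1 surrounding livers read from 9.33 to 11.97 with a median of 10.75 and Sav1 tumours from 11.87 to 14.998 with a median of 13.07; tumours lay above the flox livers and overlapped the surrounding livers only at the edge. The tumours were 1.61 ± 0.48 above flox liver (adjusted p = 0.0116) and 2.17 ± 0.36 above surrounding liver (adjusted p = 0.000137). Mst1/2 surrounding livers read 13.66, 14.21 and 13.53 and Mst1/2 tumours 14.67, 14.80, 13.39 and 13.40. Both were higher than flox liver, by 4.42 ± 0.61 (adjusted p = 3.52e-05) and 4.68 ± 0.57 (adjusted p = 2.12e-06), and overlapped each other. Spon2 was the only member whose change from flox liver to tumour differed between lines by an interaction term (-3.07, adjusted p = 0.035; 1.12% of all genes). The unequal flox livers enter this term, which was lost when any Mst1/2 flox liver, Sav1 flox replicate 2 or 3, or Mst1/2 tumour replicate 1 or 2 was left out. It was also lost under median scaling (0.133% of all genes called) and with array set as a block (0.377%). Surrounding livers of the lines differed by -2.91 (SE 0.51, adjusted p = 0.00299; 0.914% of all genes, no other member), Sav1 lower; leaving out Mst1/2 surrounding replicate 2 ended that call, and these 2 groups lie in different array sets. With same-numbered samples as blocks, 7 members were called there, 6 of them lower in Sav1 (5.96% of all genes). These samples come from mice of different genotype, and no label pairs them.

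The small leucine-rich proteoglycans, which regulate collagen fibril width, did not move together. Dcn, decorin, was among the brightest members, at 13.21, 13.60 and 13.29 in Sav1 flox liver, from 13.58 to 15.15 with a median of 14.16 in surrounding liver and from 9.48 to 13.81 with a median of 12.41 in tumours. It was lower in Sav1 tumour than in surrounding liver (difference -1.92, SE 0.39, adjusted p = 0.00129), with a small overlap between the groups, and not called against flox (adjusted p = 0.1). Lum, lumican, ranged from 6.44 to 11.06 in Sav1 tumours around flox values of 8.37, 8.18 and 8.35 and was not called. Dcn and Lum correlated across the 11 Sav1 tumours with r of 0.821 (permutation p = 0.00117, adjusted 0.00273); rho was 0.655 (adjusted p = 0.0643) and r fell to 0.602 without the 2 farthest tumours. Bgn, biglycan, was higher in Mst1/2 tumour than in flox liver by 1.92 ± 0.59 (adjusted p = 0.0206; lost without tumour replicate 4 or any 1 flox liver) and lower in Sav1 than in Mst1/2 tumour (difference -1.60, SE 0.45, adjusted p = 0.0405). Fn1, fibronectin, a plasma protein of hepatocytes as well as a matrix protein, was lower in Sav1 than in Mst1/2 tumours (difference -1.43, SE 0.30, adjusted p = 0.00757); another of its probes differed from flox liver in Sav1 tumour with the opposite sign (0.78 against -0.80), neither called. Sparc, Bgn and Fn1 were the only members called between Sav1 and Mst1/2 tumours, where 3.71% of all genes were called and 2.33% were lower in Sav1. Under median scaling Sparc and Bgn were not called, and without any 1 Mst1/2 tumour or Sav1 tumour replicate 10 Bgn was not. Within array set B, with 6 Sav1 and 4 Mst1/2 tumours, 2 members were called (11.9% of all genes). Fn1 was among them, and Sparc and Bgn were not. Without Mst1/2 tumour replicate 1 or 2 the count was 0, and fitted on those groups alone it was 0 (0.649% of all genes). Tgfbi was not called in any comparison.

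Of 7 tested matrix enzymes and inhibitors, 7 were higher in Mst1/2 tumour than in flox liver (11.0% of all genes) and 3 in Sav1 tumour (16.9%). Calls were 0 for either interaction term (1.12% and 0.0837% of all genes) and between tumours of the lines (3.71%). With shares this low, 0 of 7 says little, and a difference between the lines was not shown. Timp1, an inhibitor of matrix metalloproteinases that is induced in injured liver, rose in tumours of both lines. Its RefSeq promoter window (GRCm38.p6, plus strand, chrX:20869916-20870215) is shown because it holds a match to the TEAD motif GGAATG, at -247 from the listed start; the capitals mark it.
Timp1: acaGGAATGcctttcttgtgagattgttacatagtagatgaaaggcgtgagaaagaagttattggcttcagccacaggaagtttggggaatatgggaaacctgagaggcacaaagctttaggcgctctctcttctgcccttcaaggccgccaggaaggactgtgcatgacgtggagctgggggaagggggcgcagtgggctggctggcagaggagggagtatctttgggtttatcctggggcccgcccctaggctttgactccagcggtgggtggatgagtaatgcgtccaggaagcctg
Timp1 read 5.96, 6.19 and 6.23 in Sav1 flox liver, where no array was above background, from 6.88 to 9.70 with a median of 7.47 in surrounding liver and from 7.21 to 11.96 with a median of 9.95 in tumours. Every knockout sample lay above every flox sample. Sav1 tumours had at least 7.20-fold the flox signal (adjusted p = 0.000946) and were 1.72 ± 0.56 above surrounding liver (adjusted p = 0.0401), the latter called under 12 of 29 alternatives. Mst1/2 flox livers read 6.26, 6.64 and 6.26, surrounding livers 8.79, 9.89 and 9.05 and tumours 11.997, 11.33, 9.15 and 9.25. Tumour replicates 1 and 2 stood above all surrounding livers and 3 and 4 among them, and the difference from flox liver was 4.05 ± 0.88 (adjusted p = 0.00171). A second Timp1 probe differed by 3.20 in Sav1 tumour and 4.11 in Mst1/2 tumour from flox liver.

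Mmp14, a membrane-anchored collagenase that activates Mmp2, read 9.49, 9.97 and 9.26 in Sav1 flox liver, from 9.72 to 11.54 with a median of 10.53 in surrounding liver and from 9.77 to 12.03 with a median of 11.25 in tumours. Its rise in tumour was 1.66 ± 0.37 (adjusted p = 0.00113), with some overlap between groups. In the Mst1/2 line it read 10.16, 10.39 and 10.69, 11.08, 11.81 and 11.14 and 12.28, 12.33, 11.97 and 12.14 in flox, surrounding liver and tumour, in that order and without overlap, and rose by 1.77 ± 0.43 in tumour (adjusted p = 0.00435). A dimmer Mmp14 probe was called with the opposite sign there (-0.32), the only such pair among the members with several tested probes. Loxl1, which cross-links elastin and collagen, read 7.003, 7.35 and 6.99 in Mst1/2 flox liver, 10.15, 11.01 and 10.09 in surrounding liver and 10.40, 10.05, 10.47 and 11.19 in tumours. Both knockout groups lay far above flox liver, by 3.30 ± 0.76 (adjusted p = 0.0108) and 3.41 ± 0.71 (adjusted p = 0.00116), and overlapped each other. In the Sav1 line Loxl1 read 7.29, 7.35 and 7.24 in flox liver, from 7.91 to 10.90 with a median of 8.18 in surrounding liver and from 6.36 to 10.53 with a median of 9.03 in tumours. Surrounding livers did not overlap flox livers, tumours did, and neither difference was called (adjusted p = 0.105 and 0.0593). Its family member Lox was not above background on any flox array; Mst1/2 tumours had at least 3.34-fold the flox signal (adjusted p = 0.00809). Timp3 rose over flox in both lines, by 1.46 ± 0.44 in Sav1 tumour (adjusted p = 0.0124) and 2.04 ± 0.52 in Mst1/2 tumour (adjusted p = 0.00604). Timp2 and the gelatinase Mmp2 were called in Mst1/2 tumour only, by 1.62 ± 0.48 and 1.96 ± 0.70, calls that ended without tumour replicate 4 or flox replicate 4 or 6, among others; no interaction term for either passed. For the change from surrounding liver to tumour, 0 members had an interaction call (0.0837% of all genes) and 2 an unadjusted p under 0.05.

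Lgals1, the secreted galactoside-binding lectin galectin-1, was the member called in the most comparisons with flox liver. It read 7.48, 7.85 and 8.41 in Sav1 flox liver, from 8.47 to 11.02 with a median of 9.48 in surrounding liver and from 9.35 to 12.93 with a median of 11.55 in tumours. All knockout samples lay above all flox samples. Differences were 1.86 ± 0.60 for surrounding liver (adjusted p = 0.0448), 3.43 ± 0.57 for tumour (adjusted p = 5.44e-05) and 1.57 ± 0.42 between them (adjusted p = 0.0126). The surrounding liver call was lost on leaving out any of the 3 flox livers or surrounding replicate 2, 5, 6 or 7. Mst1/2 livers read 7.67, 7.93 and 8.05 in flox, 10.22, 11.06 and 10.40 in surrounding and 11.38, 9.92, 10.72 and 10.84 in tumour. Tumour and surrounding liver overlapped and both stood above flox liver, by 2.83 ± 0.66 (adjusted p = 0.00315) and 2.68 ± 0.71 (adjusted p = 0.0279). Vim, the intermediate filament protein of mesenchymal cells, read 7.69, 7.38 and 7.41 in Sav1 flox liver and from 6.41 to 10.62 with a median of 8.93 in Sav1 tumours. The rise of 1.47 ± 0.55 (adjusted p = 0.0416) was called under 13 of 25 alternatives. In Mst1/2 flox liver, surrounding liver and tumour Vim read 7.49, 7.80 and 7.30, then 8.72, 9.40 and 9.16, then 10.05, 10.23, 9.72 and 9.75, without overlap, with a tumour difference of 2.41 ± 0.65 (adjusted p = 0.00896).

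Acta2, the smooth muscle actin that marks contractile myofibroblasts and vessel walls, rose in Sav1 tumours. Its promoter window (GRCm38.p6, minus strand, chr19:34255324-34255623) is shown beside that of Lrat, the resting cell marker that fell (GRCm38.p6, minus strand, chr3:82903925-82904224), since each holds 1 match to GGAATG or its complement, given in capitals; it lies at -146 from the listed start of Acta2 on the same strand, and at -208 from that of Lrat on the opposite strand.
Acta2: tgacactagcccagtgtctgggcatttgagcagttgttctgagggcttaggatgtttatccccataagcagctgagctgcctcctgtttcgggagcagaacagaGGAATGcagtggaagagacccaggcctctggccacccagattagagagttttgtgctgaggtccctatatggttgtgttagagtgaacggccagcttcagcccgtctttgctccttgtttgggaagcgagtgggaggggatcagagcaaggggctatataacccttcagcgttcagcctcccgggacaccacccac
Lrat: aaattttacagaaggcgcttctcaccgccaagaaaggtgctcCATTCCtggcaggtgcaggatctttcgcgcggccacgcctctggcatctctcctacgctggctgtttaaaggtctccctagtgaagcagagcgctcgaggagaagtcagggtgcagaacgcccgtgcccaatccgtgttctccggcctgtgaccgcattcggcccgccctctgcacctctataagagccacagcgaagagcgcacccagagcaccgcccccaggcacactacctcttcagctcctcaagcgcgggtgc
Over 30 windows of 26 members in the promoter table, GGAATG occurred on either strand in 6 (20.0%), against 14.7% of all 32851 windows. The AP-1 motif TGANTCA occurred in 1 (3.33%, Col6a1) against 7.81%. The CArG box of serum response factor, searched only as CCWWWWWWGG with A or T at each W, occurred in 0 against 1.63%. Stretches that depart from this pattern by 1 letter, such as CCCTATATGG in the Acta2 window, were not counted. A match describes letters in this window only. Acta2 read 8.91, 8.14 and 9.85 in Sav1 flox liver, from 8.74 to 11.20 with a median of 9.50 in surrounding liver and from 8.36 to 11.90 with a median of 11.25 in tumours. Replicate 6 alone of the tumours lay within the range of the flox livers, and surrounding livers overlapped both groups. The tumours differed by 1.99 ± 0.53 from flox liver (adjusted p = 0.00503) and by 1.19 ± 0.39 from surrounding liver (adjusted p = 0.0426), the second called under 13 of 29 alternatives; the first was lost without Sav1 flox replicate 2. Of its other tested probes, 1 was called in the same direction (1.36) and 2 dim ones were not (0.37 and 0.50). In the Mst1/2 line Acta2 read 8.54, 9.77 and 8.45 in flox, 10.04, 9.85 and 9.93 in surrounding and 10.59, 10.26, 9.69 and 9.37 in tumour, with no call (adjusted p = 0.241 for tumour). Tagln, an actin-binding protein of contractile cells, was above background on 11 arrays only, spanned 6.14 to 6.65 from Mst1/2 flox liver to Sav1 tumour, and was not called.

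Genes of resting stellate cells fell in Sav1 tumours against both flox and surrounding liver. Lrat, which esterifies retinol for storage, read 8.12, 8.85 and 8.56 in Sav1 flox liver, from 7.66 to 9.16 with a median of 8.78 in surrounding liver and from 6.06 to 7.62 with a median of 6.53 in tumours. Every tumour lay below every flox and surrounding liver, and 7 of 11 tumours were above background. It fell by 1.80 from flox liver (SE 0.35, adjusted p = 0.00035) and by 1.73 from surrounding liver (SE 0.26, adjusted p = 5.78e-05). Surrounding and flox livers differed by -0.08 ± 0.38 (adjusted p = 0.921). Reln, the secreted glycoprotein reelin, which stellate cells make in liver, read 11.67, 11.93 and 11.63, from 11.05 to 11.96 with a median of 11.57 and from 7.06 to 10.86 with a median of 9.67 in the same order of groups. Again no tumour reached the other groups; it fell by 2.29 from flox (SE 0.58, adjusted p = 0.00354) and by 2.05 from surrounding liver (SE 0.43, adjusted p = 0.00174). Hgf, the hepatocyte growth factor that non-parenchymal cells secrete, read 7.74, 7.45 and 8.30, from 7.69 to 8.33 with a median of 8.09 and from 6.49 to 7.38 with a median of 6.82. It too separated tumours fully, and fell by 0.94 (SE 0.26, adjusted p = 0.00594) and 1.20 (SE 0.19, adjusted p = 8.46e-05). The fall of Hgf from flox liver was not called under median scaling or without Sav1 flox replicate 3, nor that of Col14a1 under median scaling or without any 1 of the flox livers. These 3 genes and Col14a1 were the 4 members whose arrays did not overlap between Sav1 tumour and surrounding liver, which held for 0.935% of all genes.

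Des, desmin, a filament protein of stellate and muscle cells, followed a different course. It read 7.06, 7.28 and 7.07 in Sav1 flox liver, from 7.31 to 8.35 with a median of 7.56 in surrounding liver and from 6.57 to 7.39 with a median of 7.02 in tumours. Surrounding livers lay above the flox livers (difference 0.56 ± 0.21, adjusted p = 0.0838, not called), and tumours around them. Tumours were lower than surrounding liver (difference -0.64, SE 0.15, adjusted p = 0.00463), a call lost under median scaling, and differed from flox by -0.07 ± 0.20. The platelet-derived growth factor receptors Pdgfra and Pdgfrb were not called in any comparison; Pdgfra spanned 6.56 to 10.52 in Sav1 tumours.

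The 4 Mst1/2 tumours were split for these genes. Lrat read 6.30, 6.23, 7.79 and 8.11, Reln 8.48, 8.35, 10.55 and 11.99, Hgf 6.52, 6.75, 7.27 and 8.43 and Des 7.14, 7.09, 7.67 and 8.33 in replicates 1 to 4. For all 4 genes replicates 1 and 2 were the lowest and replicate 4 the highest, and replicate 4 lay within or above the range of the surrounding livers, which was 8.18, 8.26 and 7.87 for Lrat, 11.48, 11.88 and 11.003 for Reln, 7.64, 8.38 and 7.67 for Hgf and 8.06, 8.24 and 7.83 for Des. The Mst1/2 flox livers read 8.34, 7.88 and 8.46 for Lrat, 11.39, 11.39 and 11.63 for Reln, 7.31, 7.29 and 7.56 for Hgf and 7.33, 7.52 and 7.45 for Des. With that spread, no call was made against flox liver: the differences were -1.12 ± 0.42 for Lrat (adjusted p = 0.0564) and -1.63 ± 0.68 for Reln (adjusted p = 0.0916). With Sav1 flox livers as control they were called, at -1.40 for Lrat (adjusted p = 0.0143) and -1.90 for Reln (adjusted p = 0.0409). Those flox livers lie in array set A and the Mst1/2 tumours in set B, so array set and mouse line cannot be told apart from tumour there. Interaction terms for Lrat and Reln did not pass, so a difference between lines was not shown.

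**Figure D3:**
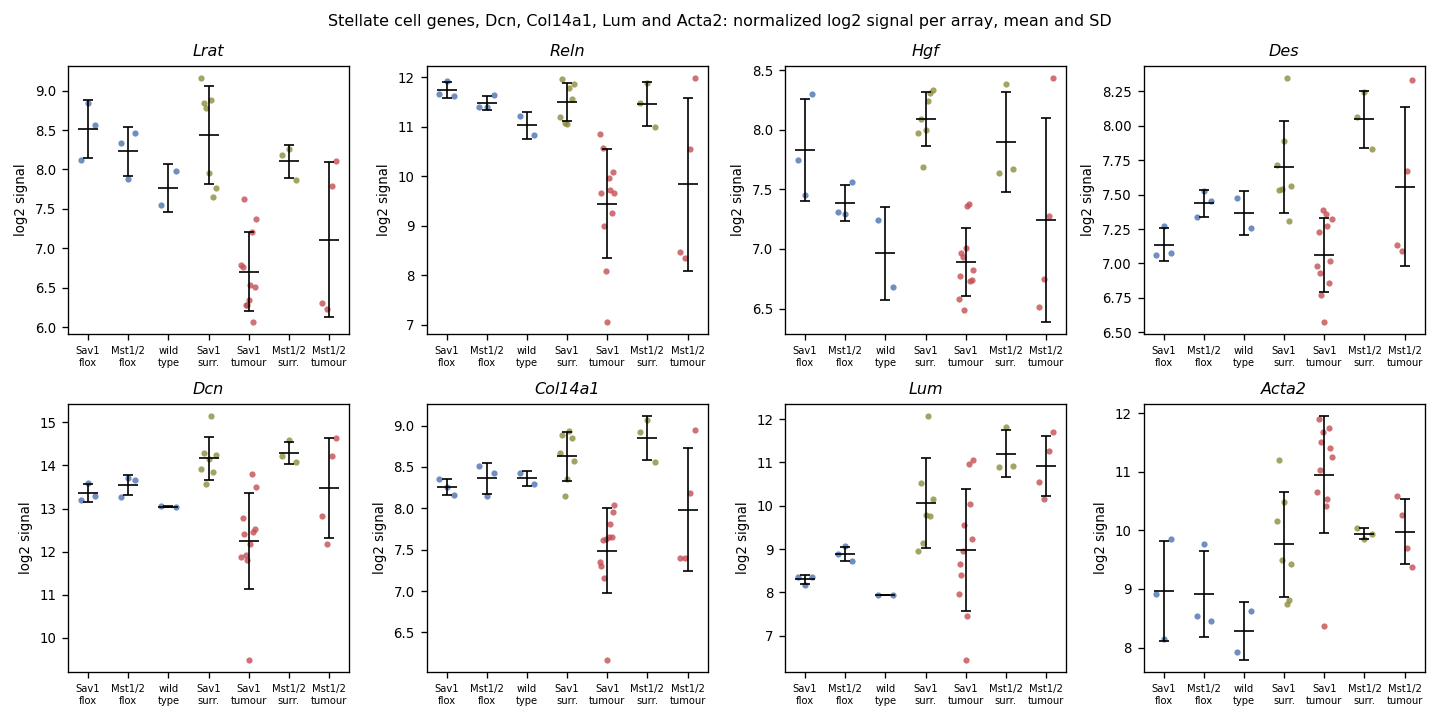
Normalized log2 signal of 8 genes on each of the 33 arrays (points) by group, with mean (dash) and SD (bars). All 11 Sav1 tumours lie below all Sav1 surrounding livers for Lrat, Reln, Hgf and Col14a1, and the 4 Mst1/2 tumours spread over most of the range for Lrat, Reln and Dcn.

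Sav1 tumours varied widely among themselves. The largest SDs over the 11 tumours were 1.57 for Timp1 and Col3a1, 1.41 for Lum and 1.23 for Col6a1. Over the 3 flox livers these were 0.15, 0.19, 0.10 and 0.26, and Timp1 was above background on no array there. Sav1 surrounding livers varied widely too, with SDs of 1.01, 1.37, 1.04 and 1.14 for these genes. For Loxl1 and Mmp2 the SD was larger in surrounding liver (1.27 and 1.25) than in tumours (1.17 and 1.06). The flox livers lie in array set A only, while the tumours lie in all 3 sets. Sav1 tumour replicate 11 had the highest level for 15 of 36 members and replicate 6 the lowest for 27. The members' median difference from the normal livers was 1.80 in replicate 11 and -0.36 in replicate 6, and between 0.07 and 1.59 in the others. In Sav1 surrounding liver it was 1.60 in replicate 2 and 1.56 in replicate 5, and from 0.25 to 0.58 in the others. Mst1/2 surrounding livers and tumours all lay between 1.13 and 1.93. Apart from the type IV and VI chains and Dcn with Lum, the pairs tested across Sav1 tumours did not pass: r was 0.308 for Col1a1 with Col1a2 (permutation p = 0.357, adjusted 0.417), 0.547 for Lrat with Reln (p = 0.0773, adjusted 0.108), 0.584 for Acta2 with Col1a1 (p = 0.0662, adjusted 0.108) and -0.0098 for Acta2 with Lrat (p = 0.979, adjusted 0.979). Spearman's rho for these was 0.236, 0.645, 0.309 and -0.382, with adjusted p of 0.484, 0.0643, 0.414 and 0.347. Leaving out the 2 tumours farthest from the median of the first gene gave r of -0.135, 0.49998, 0.192 and -0.603.

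Within array sets the called members kept their direction, but these arrays are part of those that gave the calls, so this is not an independent check. In set A, 3 Sav1 tumours against 3 flox livers, all 17 called members had the same sign as over all arrays, 16 at 0.5 times the size or more, and 5 were called (6.61% of all genes): Acta2 (2.23), Lrat (-1.45), Reln (-1.37), Hgf (-1.06) and Col14a1 (-0.83). Timp1 differed there by 2.74, Lgals1 by 2.20, Col4a1 by 2.17 and Col3a1 by 1.37, none called. With set as a block over all arrays 11 members were called in Sav1 tumour against flox liver (9 higher, 2 lower; 19.4% of all genes); Col3a1, Timp3, Vim, Col15a1, Col14a1 and Reln were no longer called. All 12 members called between Sav1 tumour and surrounding liver kept their sign in set A and in set C; 1 was called in set A (Lrat, -1.87; 0.356% of all genes) and 6 in set C, with 2 tumours against 4 surrounding livers (5.59%), where Reln differed by -3.03, Dcn by -2.48, Timp1 by 2.53 and Lrat by -1.78. Set A gave no call for Sav1 surrounding liver against flox liver (0.160% of all genes), with Lgals1 at 1.58. The Mst1/2 groups all lie in set B.

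**Figure D4:**
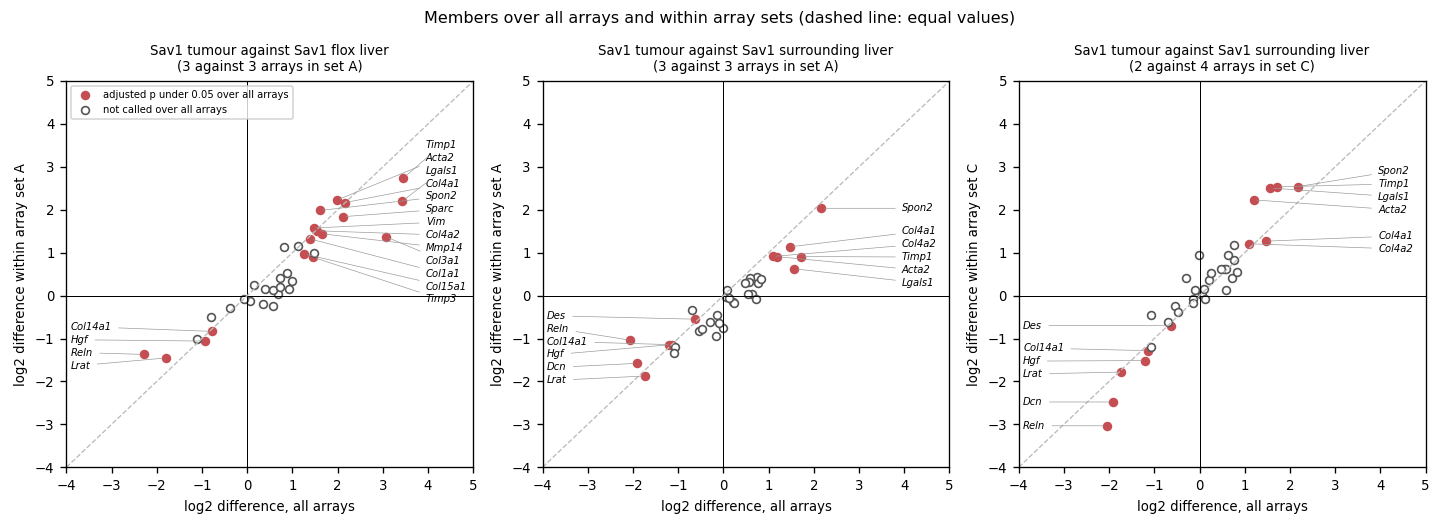
Log2 difference of each tested member over all arrays (x axis) against that within a single array set (y axis) for Sav1 tumour against flox liver in set A and against surrounding liver in sets A and C. Filled points are called over all arrays and named; all 17 and 12 of them fall in the lower left or upper right quadrant. The dashed line marks equal values; against surrounding liver 11 of 12 in set A and 12 of 12 in set C had 0.5 times the size over all arrays or more, with Lgals1 (0.62 in set A) and Reln (-1.04 and -3.03) among those away from the line.

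Genes with related functions outside the 41 are given as counts, without a test of the list, to be read against the 32.7% of all genes called in Sav1 tumour against flox liver (16.9% higher, 15.8% lower). Of 28 tested genes for other matrix and basement membrane proteins, 14 were higher and 2 lower in Sav1 tumour than in flox liver (median 0.78), among them Mgp (3.33 ± 0.90), an inhibitor of calcification, Col8a1 (2.94 ± 0.59), and Nid1 (2.29 ± 0.37) and Lamb2 (2.12 ± 0.31), which are basement membrane components. Ecm1 (-2.63 ± 0.42) and Col5a3 (-0.52 ± 0.13) fell. Of 16 genes for collagen folding and trimming, 4 were higher and 1 lower (median 0.30), a share near that of all genes, with Pcolce (1.91 ± 0.47), an enhancer of procollagen cleavage, and Serpinh1 (1.56 ± 0.49), the collagen chaperone, the largest rises, and P4hb (-0.72 ± 0.22) the fall. Of 18 proteinases and their regulators, 9 were higher and 2 lower (median 1.00), with Mmp12 (2.76 ± 0.67), the macrophage elastase, and Mmp13 (1.83 ± 0.44), a collagenase, highest, and Ctsl (-1.19 ± 0.37) and Reck (-0.78 ± 0.14), an inhibitor of metalloproteinases, lower. Of 21 genes of TGF-beta and PDGF signalling, 11 were higher and 2 lower (median 0.87). The growth factor genes Pdgfb (2.77 ± 0.33), Pdgfa (2.00 ± 0.24) and Tgfb2 (1.66 ± 0.35) and the matricellular gene Ccn2 (2.36 ± 0.43), a known YAP target, led the rises. Of 21 matrix receptors, 7 were higher and 1 lower (median 0.20), again near the share of all genes, led by the collagen receptor Ddr1 (3.36 ± 0.48) and the laminin-binding integrin chains Itgb4 (2.16 ± 0.42) and Itga3 (1.71 ± 0.30), with Sdc1 (-1.04 ± 0.28) lower. In Mst1/2 tumour against flox liver the counts were 15 and 2, 5 and 1, 6 and 2, 11 and 0, and 6 and 1 in the same order of lists, where 11.0% of all genes were higher and 8.83% lower.

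Markers of the cells that could carry these genes are counted in the same way. Against the 32.7% of all genes called in Sav1 tumour, the endothelial, biliary, mesothelial and hepatocyte lists were below that share. Of 13 tested resting stellate cell markers, 0 were higher and 7 lower in Sav1 tumour than in flox liver (median -1.16), with Ecm1, Reln, Colec10 (-2.20 ± 0.45) and Lrat the largest; 10 were lower than in surrounding liver (5.64% of all genes). In Mst1/2 tumour 0 were higher and 4 lower than in flox liver (median -1.12), where 11.0% of all genes were higher and 8.83% lower. The 4 were Angptl6, Colec10, Ecm1 and Nt5e, none of them a member and named after their values were seen. The list shares 4 genes with the 41 members. The list's mean level per array ran from 7.29 to 8.49 in Sav1 tumours, 8.95 to 9.07 in Sav1 flox liver and 8.87 to 9.37 in Sav1 surrounding liver. Of 14 tested myofibroblast and portal fibroblast markers, 9 were higher and 0 lower in Sav1 tumour (median 1.36), with Timp1, Col3a1, Gas6 (2.35 ± 0.29) and the surface marker Thy1 (2.24 ± 0.42) leading; 8 of the list are members. Their mean ran from 7.39 to 8.75 in Sav1 tumours and from 6.79 to 7.03 in flox liver, where 9 of 16 were above background on no array. Of 5 smooth muscle markers 2 were higher and 0 lower, and Lmod1 was above background on no array of Sav1 tumour. Mesothelial markers gave 0 calls of 5 in Sav1 tumour (their mean ran from 6.16 to 7.81 there) and 3 higher in Mst1/2 tumour (11.0% of all genes higher). Endothelial markers gave 1 higher, Emcn (1.63 ± 0.36), and 3 lower of 14. The lower ones were the sinusoidal genes Clec4g (-3.24 ± 0.90) and Stab2 (-1.66 ± 0.42), and Tek (-1.28 ± 0.23). Of 11 macrophage markers 6 were higher and 4 lower in Sav1 tumour and 8 higher and 0 lower in Sav1 surrounding liver (4.92% of all genes higher), where their mean ran from 10.22 to 12.19 against 8.67 to 9.41 in flox liver. Ctss (3.39 ± 0.67) and Lyz2 (3.35 ± 0.62) rose, and the Kupffer cell genes Clec4f (-2.52 ± 0.64) and Vsig4 (-2.31 ± 0.83) fell in tumour. Of 8 biliary markers 2 were higher in Sav1 tumour, Tspan8 (3.21 ± 0.73) and Sox9 (3.10 ± 0.56), and 5 in Mst1/2 tumour (11.0% of all genes higher). Of 10 hepatocyte markers 1, Apob (-0.77 ± 0.29), was lower in Sav1 tumour. Hepatocyte marker means ran from 11.74 to 12.45 in Sav1 tumours and from 12.30 to 12.66 in Sav1 flox liver. The part of these differences in the levels of the 41 genes was not tested.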

How the data were processed

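RNA of 33 mouse liver samples in 7 groups, taken from GEO's labels, was measured on 1-colour Illumina bead arrays with 45281 probes. The deposited table of the arrays holds average probe intensity on a linear scale without detection p-values. The authors' series table holds log2 values, which differed by at most 0.00500 from the signals after quantile normalization alone, with no background step (column median 6.57); BeadStudio is named per the submitters' processing notes, with no version. From the intensities, values were corrected with normexp (offset 50), quantile-normalized and put on a log2 scale with limma 3.58.1 in R 4.3.3, where the lowest value is 5.65. Gene names came from the platform annotation: 34885 probes had 1 gene symbol, 18 several and 10378 none, and 34807 matched a current gene ID. A gene was represented by its probe with the highest mean of the authors' values. The limit for a signal above background was the 99th percentile of the lower signals mirrored about their mode, 80.8 to 108 units. One limma fit with a mean for each group over all 33 arrays gave moderated tests, with Benjamini-Hochberg adjustment over 14339 genes and a threshold of 0.05. A member at background throughout a group has only a bound there: the bright group's mean over the dim group's, each dim array taken at the lowest signal above background or its own, whichever was higher. The number of arrays limits precision. Values were checked on simulated data with known changes.

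Members and gene lists were chosen with earlier results of these data known. Values of every array were given for the members with the largest called differences from flox liver in either line (up to 8 each way), and for Lrat, Des, Reln, Hgf, Acta2, Col1a1, Col1a2 and Col3a1; from each further list, at most 4 genes each way with the largest called difference in Sav1 tumour were named. Correlations used 100000 permutations, two-sided. In the comparison of surrounding livers between lines the 3 same-numbered pairs had deviations correlated at 0.181 to 0.338. The count with these numbers as blocks is given beside the result. These livers come from mice of different genotype and no label ties the numbers, so they are not shown to be pairs. Alternatives covered the authors' values, scaling, offset, filters, probe choice, the groups in the fit, each array left out, array set, replicate block and the control group. Promoter windows are from RefSeq (GRCm38.p6), used with Python 3.11.15 and scipy 1.17.1; protein sequences were not used here.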

Additional observations from a re-analysis of the deposited data

Results flagged for a closer look

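Among 72 sets of member values in groups of 4 to 10 arrays, 6 held 1 array far from the others for the range of its group. Chance gives about 5% of sets. The sets share arrays and are not independent, and the count was not tested against that share. Because the rule is relative to the range, a small gap can pass, as for Tagln. Pdgfra (10.99, next 9.77) and Pdgfrb (8.36, next 7.36), receptors of stellate cells and fibroblasts, were both highest on Sav1 surrounding liver replicate 5. Lox was highest on Sav1 surrounding liver replicate 2, at 8.82 with the next at 6.92. In Mst1/2 tumours, replicate 4 was highest for Timp2 (11.89, next 10.97) and for the dim Tagln (6.37, next 6.25), and replicate 1 was lowest for Col15a1 (8.33, next 8.58). The change of Spon2 from flox liver to tumour differed between the lines by an interaction term of -3.07, smaller in Sav1. Its flox livers were unequal between the lines and enter this term, which was called under 20 of 29 alternatives. What sets these arrays and this gene apart was not tested.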

How the results depend on the processing

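Called members kept their sign in all 1273 values of 55 called pairs of member and comparison under the alternatives, and 1077 were still called. The pairs were picked by their calls and the alternatives reuse the same arrays, so this is not an independent check. Shares in parentheses are those of all genes called under the same setting. For Sav1 tumour against flox liver the count of 17 (32.7%) was 11 with array set as block (19.4%), 5 within set A (6.61%), 0 with the replicate block (0.467%) and 26 with the mean of 3 normal groups as control (43.9%). For Sav1 surrounding against flox liver the count of 1 (10.3%) was 5 under median scaling (10.1%), 2 with offset 16 (11.4%), with a filter asking for 11 arrays above background (11.5%), and with the mean of a gene's probes (11.3%), 12 with the 3 normal groups (19.7%), and 0 without the filter (8.44%), with only the compared groups (7.23%), with set as block (3.89%), within set A (0.160%) and with the replicate block (0% of all genes). For Sav1 tumour against surrounding liver the count of 12 (12.4%) was 1 within set A (0.356%) and 6 within set C (5.59%), and 9 with the replicate block (9.55%), 8 of them among the 12; Col4a1, Col4a2, Timp1 and Acta2 were not called in that blocked fit. For Mst1/2 tumour against flox liver 16 (19.8%) became 26 with the 3 normal groups (29.6%). For Mst1/2 surrounding against flox liver 4 (3.84%) became 8 with offset 16 (4.18%), 31 with only the compared groups (28.7%), 12 with Sav1 flox as control (10.7%) and 16 with the 3 normal groups (11.4%). Sav1 against Mst1/2 tumour, 3 (3.71%), gave 1 under median scaling (2.28%), 2 within set B (11.9%) and 0 with only the compared groups (0.649%) or the replicate block (0% of all genes). Sav1 against Mst1/2 surrounding liver, 1 (0.914%), gave 7 with the replicate block (5.96%). Mst1/2 against Sav1 flox liver, 0 (3.47%), gave 1 with offset 16 (3.61%), with mean probes (3.72%) and with only the compared groups (3.19%). The interaction from flox liver to tumour, 1 (1.12%), gave 0 under median scaling (0.133%) and with set as block (0.377%).

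Leaving out 1 array at a time gave 11 to 22, 0 to 3, 9 to 14, 12 to 16, 1 to 2, 0 to 1, 0 to 5, 0 to 1, 0 to 0 and 0 to 1 members in the same order of comparisons, with Mst1/2 tumour against surrounding liver sixth, and 0 to 0 for the other interaction and the F test. The 5 came without Sav1 tumour replicate 11, and the 1 of Mst1/2 tumour against surrounding liver without tumour replicate 4. Same-numbered samples were not shown to be paired. Correlations of deviations ran from -0.0824 to -0.0186 for Sav1 tumour and flox liver and from 0.181 to 0.338 for the surrounding livers of the lines. For Sav1 tumour and surrounding liver they ran from 0.0695 to 0.690, with the own number highest in 4 of 7. Replicates 1 to 3 gave 0.561, 0.690 and 0.594 there. No replicate block could be fitted against Mst1/2 flox liver, which shares fewer than 2 numbers with each group it was compared with. The cause of these changes was not tested, except that single sets and left-out arrays hold fewer samples. Dim members such as Tagln, Col5a2 and Col1a2 are limited by signal over background.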
